A study of Mus musculus with 12 samples.

Results

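The genes described here encode ligands of the TGF-beta and BMP family, namely Tgfb1, Tgfb2, Tgfb3, Bmp2, Bmp4, Bmp6, Inhbb and Gdf10, together with Fst, which encodes the secreted activin-binding protein follistatin. They were chosen by name from a list of 10 genes. Of these, 9 were among the 14159 genes with normalized counts and all 9 passed the filter on low values, while Bmp8b was not analysed here. The study profiled polyadenylated RNA of whole inguinal white adipose tissue (iWAT), the subcutaneous fat depot of the groin in which cold elicits beige adipocytes. It compared Atf4AKO mice, which carry floxed Atf4 alleles and an Adipoq-Cre transgene, with Atf4WT mice, littermates that carry floxed Atf4 without Cre, all on a C57BL/6 background. Mice of each genotype were kept at room temperature (RT, with housing at 22 °C) or at 5 °C for 24 h, and each of the 4 groups held 3 biological replicates, numbered 0 to 2. The age and sex of the mice sequenced were not given in the sources used here. Adipoq-Cre acts in adipocytes, whereas whole tissue was sequenced, so fewer cells of a type and less RNA per cell cannot be told apart.

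TGF-beta family ligands are secreted as dimers that bind pairs of type I and type II serine/threonine kinase receptors. TGF-betas and activins signal mainly through SMAD2 and SMAD3, and BMPs mainly through SMAD1, SMAD5 and SMAD9. TGF-betas are stored in latent form in the matrix, and activins and BMPs are held back by secreted binding proteins such as follistatin, noggin and chordin. In adipose tissue, BMP signaling is known to favor adipocyte commitment and TGF-beta to favor fibroblast activation and matrix deposition, and Inhbb is known as a gene that white adipocytes express strongly.

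The libraries held between 25719476 and 29105147 reads assigned to the listed genes. Atf4 ranged from 4107 to 7644 normalized counts in Atf4WT libraries and from 788 to 1639 in Atf4AKO libraries, and Ucp1, the thermogenic uncoupling protein gene, ranged from 204 to 1097 at RT and from 73632 to 119558 after cold, so both checks followed the labels. Markers of other cells did not stay level. Summed counts of 9 B cell markers reached 3760 to 12824 in Atf4WT libraries after cold and 79.4 to 326 in Atf4AKO libraries after cold, and 1 of the Atf4WT libraries at RT, replicate 2, also held 3745. Replicate 1 of each cold group had the lowest sum of 7 fibroblast markers in its group, and was also the lowest library of its group for 6 of the 9 ligand genes and Fst, whereas these libraries were the lowest of their groups for 32.6% and 33.5% of all tested genes.

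Inhbb encodes the beta B subunit that forms activin B. It was the member with the largest change. In Atf4WT iWAT it had 1808, 1851 and 1511 normalized counts at RT and 449, 291 and 252 after cold. The Atf4AKO libraries had 1733, 1643 and 1379.5 normalized counts at RT and 612, 426 and 319 after cold. The lowest RT library of either genotype lay above the highest cold library of either genotype. Inhbb fell by 2.42 on the log2 scale in Atf4WT iWAT (SE 0.24, adjusted p = 0.000101 by limma), which is 5.34-fold lower, with a 95% confidence interval from -2.95 to -1.88. In Atf4AKO iWAT it fell by 1.85 (SE 0.24, adjusted p = 0.000503), which is 3.61-fold lower. Both calls held in every alternative that was run. The gene lies on chromosome 1 at 119415465 to 119422248 on the minus strand of GRCm38, and no other annotated gene overlaps it.

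The sequence directly before an annotated start is shown for Inhbb and for Tgfb1, as examples of members with a called cold response whose upstream window lies outside annotated transcripts of that gene. Both windows come from RefSeq on GRCm38.p6 and hold the 250 bases upstream of the start, read on the strand of the gene. They lie at chr1:119422249-119422498 on the minus strand for Inhbb and at chr7:25686752-25687001 on the plus strand for Tgfb1. Capitals mark a GC box (GGGCGG, or CCGCCC where the match is on the other strand).

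Inhbb: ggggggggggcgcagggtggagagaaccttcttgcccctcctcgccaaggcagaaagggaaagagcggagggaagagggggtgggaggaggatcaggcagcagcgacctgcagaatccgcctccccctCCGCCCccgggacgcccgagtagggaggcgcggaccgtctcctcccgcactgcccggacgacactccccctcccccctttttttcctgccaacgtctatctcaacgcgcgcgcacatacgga

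Tgfb1: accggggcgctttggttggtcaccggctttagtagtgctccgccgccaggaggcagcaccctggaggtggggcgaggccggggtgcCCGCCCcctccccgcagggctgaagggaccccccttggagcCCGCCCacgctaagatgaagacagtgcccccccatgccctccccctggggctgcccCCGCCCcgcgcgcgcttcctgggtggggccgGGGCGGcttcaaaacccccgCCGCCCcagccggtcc

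Inhbb, whose RNA fell most, held 1 GC box, and Tgfb1 held 5. The 2 windows had a GC content of 68.0% and 75.2%, beside a median of 52.4% over all 32851 upstream windows in the table, of which 32.7% held a GC box. Neither window held the cAMP response element TGACGTCA (in 1.55% of all windows), its half-site TGACG, which also matches within the full element (17.8%), the C/EBP-ATF composite TGATGNAA (3.45%), the TATA box TATAAA (12.4%) or the palindromic SMAD element GTCTAGAC (0.167%), with both strands searched. Among the other members with an entry, Bmp4 and Bmp6 held 1 GC box each and Gdf10 held 4, and Tgfb2 held a CRE half-site and a TATA box. Tgfb3, Bmp2 and Fst had no entry.

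Fst, whose product binds activins, was measured in the same libraries. It had 687, 343 and 408 normalized counts in Atf4WT iWAT at RT and 509.5, 190.0 and 386 after cold. The Atf4AKO values were 644, 600.4 and 622 at RT and 629, 261 and 617 after cold. The RT and cold libraries overlapped in both genotypes. The log2 fold change after cold was -0.45 (SE 0.41, adjusted p = 0.421) in Atf4WT iWAT and -0.42 (SE 0.41, adjusted p = 0.477) in Atf4AKO iWAT, and without cold replicate 1 it was -0.046 and 0.0027.

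Per kilobase of exon, the level of Inhbb was 1.75, 3.60 and 2.47 times that of Fst in the Atf4WT libraries at RT and 1.79, 1.82 and 1.48 times in the Atf4AKO libraries at RT. After cold, the ratio was 0.587, 1.02 and 0.435 in Atf4WT libraries and 0.648, 1.09 and 0.345 in Atf4AKO libraries. All 6 RT ratios lay above all 6 cold ratios, and no test was made of this ratio, which was computed after the values of both genes were seen. In both cold groups, the library with the highest ratio was replicate 1, where Fst was lowest.

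**Figure D1:**
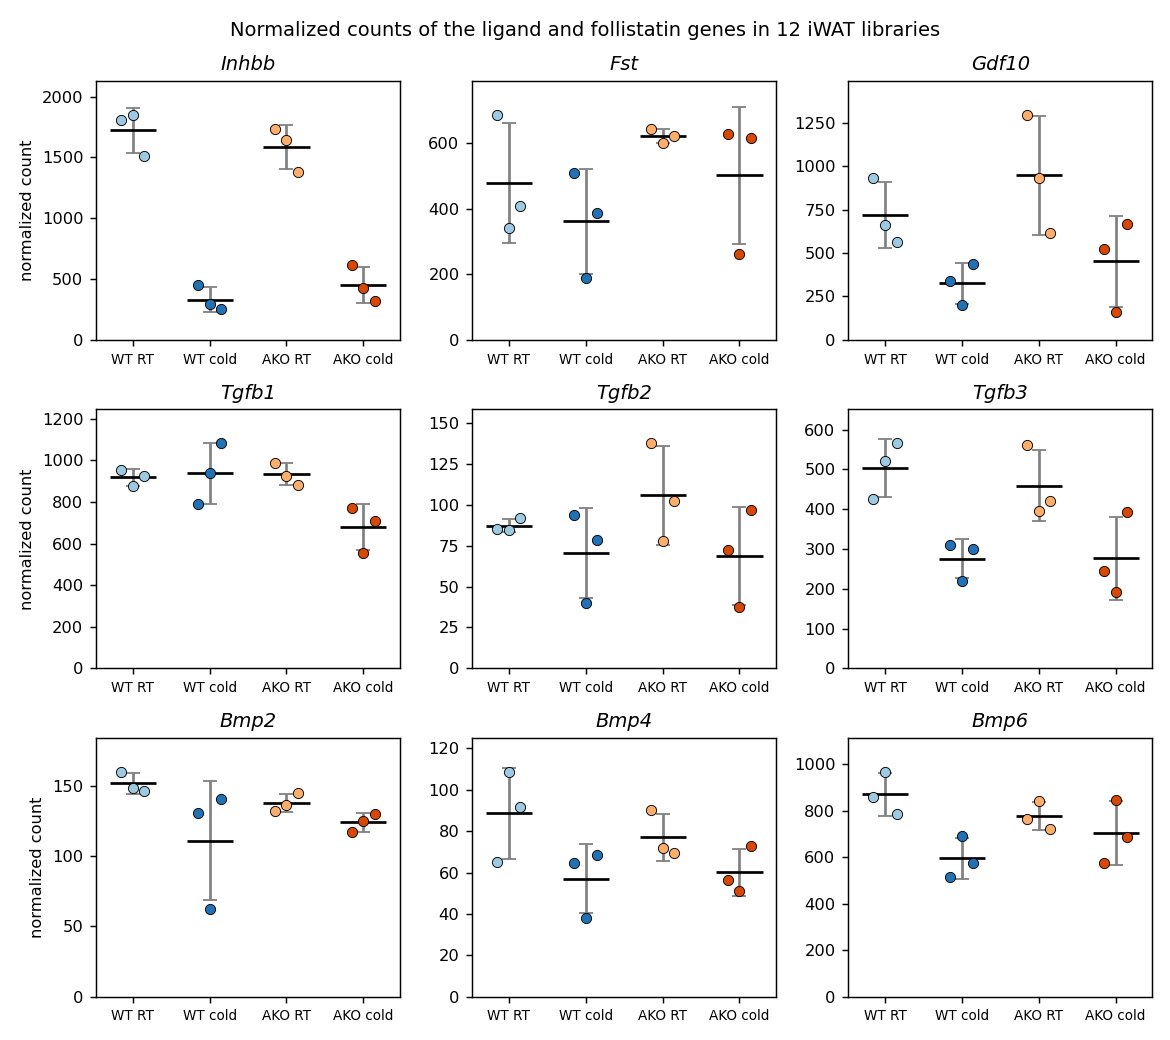
Normalized counts (vertical axes, each starting at 0) of the 8 ligand genes and Fst in 12 iWAT libraries, grouped by genotype (WT, Atf4WT; AKO, Atf4AKO) and temperature; points are libraries in the order of replicates 0, 1 and 2, horizontal bars are means and vertical bars are 1 SD (n = 3). Inhbb was between 1379.5 and 1851 in the 6 RT libraries and between 252 and 612 in the 6 cold libraries, and Tgfb1 was lowest in the Atf4AKO cold libraries.

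Tgfb3 encodes the TGF-beta ligand that, like the other TGF-betas, is released from a latent complex. It had 424, 522 and 566 normalized counts in Atf4WT iWAT at RT and 309, 218 and 299 after cold. For Atf4AKO iWAT the counts were 561, 396 and 420.3 at RT and 246, 192 and 392 after cold. In both genotypes all cold libraries lay below all RT libraries, although in Atf4AKO iWAT cold replicate 2 lay just under the lowest RT library. Tgfb3 fell by 0.87 on the log2 scale in Atf4WT iWAT (SE 0.25, adjusted p = 0.0215), and it fell by 0.78 in Atf4AKO iWAT (SE 0.25, adjusted p = 0.0409). The call in Atf4WT iWAT was lost without cold replicate 1, with a log2 fold change of -0.72 (adjusted p = 0.0801), and without RT replicate 1 (adjusted p = 0.0643) or RT replicate 2 (adjusted p = 0.0650). With the lymphocyte score as a covariate, the genes called lower after cold in Atf4WT iWAT went from 2000 to 448 over all tested genes. Tgfb3 was then at -1.06 and its call was lost as well (adjusted p = 0.132). In Atf4AKO iWAT it was lost in 10 alternatives, among them edgeR (adjusted p = 0.0665) and the model without cold replicate 1 (log2 fold change -0.55, adjusted p = 0.150). The gene lies on chromosome 12 at 86056745 to 86079041 on the minus strand. Ttll5 overlaps it on the other strand, with 0 bases of exon in common.

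Fibroblast markers were lower after cold in the same libraries. Their summed normalized counts ranged from 68395 to 86557 over the 6 RT libraries and from 23151 to 53356 over the 6 cold libraries, all 7 markers being listed in every library. All 7 were lower after cold in each genotype, 4 of them by the test. The median log2 fold change was -1.14 in Atf4WT and -0.89 in Atf4AKO iWAT. Mural cell markers had a median of -0.33 in both genotypes, with 2 and 3 of 7 lower by the test, and endothelial markers a median of -0.05 and 0.01, with 2 of 8 lower in Atf4WT and 1 of 8 higher in Atf4AKO iWAT by the test. The part of these shifts in the values of Inhbb, Tgfb3 and Gdf10 was not tested, nor in those of the collagen and secreted antagonist genes given below. For the remaining marker lists beside those of immune cells, the medians in Atf4WT and Atf4AKO iWAT were -0.25 and -0.11 for adipocytes, with 1 of 7 lower by the test in Atf4WT. Skeletal muscle markers had medians of -0.16 and 0.42, but their sum was 71146 in Atf4WT RT replicate 2, against 447 and 849 in the other libraries of its group, and 25626 in Atf4WT cold replicate 0, against 139 and 189. The medians were -0.42 and -0.60 for epithelium, of which 2 of 7 markers were tested, and 0.017 and -1.23 for proliferating cells, with 0 called.

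Tgfb1, the TGF-beta isoform with the highest level in this tissue, was the only member whose pattern set the Atf4AKO cold libraries apart. In Atf4WT iWAT it had 953, 875 and 926 normalized counts at RT and 791, 937 and 1082 after cold. Atf4AKO iWAT had 989, 926 and 883 at RT and 769.6, 557 and 709 after cold. The 3 Atf4AKO cold libraries lay below the other 9 libraries, although the highest of them was close to the lowest Atf4WT cold library. Between the genotypes after cold, 7.84% of tested genes lay wholly lower in Atf4AKO iWAT. In Atf4AKO iWAT, Tgfb1 fell by 0.47 on the log2 scale after cold (SE 0.14, adjusted p = 0.0262), which is 1.39-fold lower. In Atf4WT iWAT the log2 fold change was 0.02 (SE 0.14, adjusted p = 0.933).

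Between the genotypes after cold, Tgfb1 differed by -0.47 (Atf4AKO minus Atf4WT, SE 0.14, 95% confidence interval -0.76 to -0.17), with an unadjusted p of 0.00529 and an adjusted p of 0.144 by limma, so it did not pass. The difference between the cold responses was -0.49 (SE 0.19, interval -0.91 to -0.07), with an unadjusted p of 0.0263 and an adjusted p of 0.599. These comparisons share the Atf4AKO cold libraries. The fall of Tgfb1 in Atf4AKO iWAT lost its call with edgeR (adjusted p = 0.0541), with a model of those 2 groups alone (0.0516), and without RT replicate 0 (0.0902), RT replicate 1 (0.0599) or cold replicate 1 (0.0955, log2 fold change -0.33).

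Among the cold libraries, lymphocyte markers and Tgfb1 were both lower in Atf4AKO iWAT. Summed T cell markers were 903 to 7266 normalized counts in Atf4WT cold libraries and 170.1 to 432 in Atf4AKO cold libraries. B cell markers showed the same order, as given above. All 9 tested markers of each list rose after cold in Atf4WT iWAT, with a median log2 fold change of 4.55 for B cells and 3.43 for T cells, where Tgfb1 had a log2 fold change of 0.02. In Atf4AKO iWAT, where Tgfb1 fell, 0 of the 9 tested markers of either list were called after cold. Macrophage markers summed to 4766 in Atf4AKO cold replicate 1, where Tgfb1 was lowest, and to 27568 and 27689 in the other cold libraries of that genotype. In Atf4WT cold libraries they were also lowest in replicate 1, at 13082 against 29411 and 33466, where Tgfb1 was at 937 and thus above replicate 0. Of these macrophage markers, 0 of 7 passed the test in any comparison. Their median log2 fold change after cold was -0.62 in Atf4WT and -0.996 in Atf4AKO iWAT, and that of 5 neutrophil and mast cell markers was -0.034 and -0.50, with 1 lower by the test in Atf4AKO. With a score of lymphocyte markers as a covariate, the genotype difference of Tgfb1 after cold was -0.11 (adjusted p = 1.00). Its log2 fold change after cold in Atf4WT iWAT was then -0.28 (adjusted p = 0.399). The score was 7.42, 9.31 and 9.83 in Atf4WT cold replicates 0, 1 and 2, and 5.04, 3.49 and 3.88 in those of Atf4AKO. After cold it thus followed genotype, and this model cannot tell score and genotype apart. Within each cold group, the libraries had the same order by Tgfb1 as by this score. At RT the orders differed in both genotypes. The part of lymphocytes in the Tgfb1 values was not tested. With the same covariate, the fall of Tgfb1 in Atf4AKO iWAT was still called, with a log2 fold change of -0.42 (adjusted p = 0.0325). There the score overlapped between RT (4.07 to 5.34) and cold (3.49 to 5.04), so the covariate could change this value little.

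Tgfb2, the TGF-beta isoform with the lowest level, had 84.7 to 91.8 normalized counts in Atf4WT iWAT at RT and 40.1 to 93.5 after cold, and 77.7 to 138 in Atf4AKO iWAT at RT and 37.4 to 96.7 after cold. The groups overlapped, and the log2 fold changes after cold were -0.39 (SE 0.38) and -0.68 (SE 0.38), with adjusted p-values of 0.465 and 0.214. In both genotypes the lowest value belonged to cold replicate 1, without which the log2 fold changes were -0.029 and -0.30.

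Bmp6 had the highest level of the 3 BMP genes. It encodes a BMP that is known to act on hepatic iron sensing. In Atf4WT iWAT it had 858, 967 and 784 normalized counts at RT and 517, 691 and 576 after cold. The Atf4AKO libraries had 766, 843 and 722 at RT and 576, 847 and 689 after cold. The cold libraries lay below all RT libraries in Atf4WT iWAT, and the groups overlapped in Atf4AKO iWAT, where cold replicate 1 lay slightly above the highest RT library. Bmp6 fell by 0.55 on the log2 scale in Atf4WT iWAT (SE 0.15, adjusted p = 0.0181). In Atf4AKO iWAT the log2 fold change was -0.16 (SE 0.15, adjusted p = 0.470). The difference between these responses was 0.40 (SE 0.21, interval -0.08 to 0.87) with an adjusted p of 0.845, so the genotypes were not shown to differ in it.

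The call of Bmp6 in Atf4WT iWAT was lost without RT replicate 1 (adjusted p = 0.0711), cold replicate 0 (0.0613) or cold replicate 2 (0.0503). It was also lost with the lymphocyte score as a covariate (log2 fold change -0.34, adjusted p = 0.394). Over all tested genes, that covariate took those called lower after cold in Atf4WT iWAT from 2000 to 448. Bmp6 lies on chromosome 13 at 38345107 to 38500302 on the plus strand and shares 224 bases of exon with Txndc5 on the other strand. Txndc5 encodes a protein disulfide isomerase and fell in both genotypes, by 0.35 (adjusted p = 0.00315) and by 0.47 (adjusted p = 0.000783). The library kit keeps strand but the strand setting of the counting was not given in the sources used here, so reads of that stretch cannot be told apart.

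Bmp2 and Bmp4 encode closely related BMPs. Bmp2 had 146 to 160 normalized counts in Atf4WT iWAT at RT, 62.3 to 140.3 after cold, 132 to 145 in Atf4AKO iWAT at RT and 117 to 130.01 after cold. Its libraries did not overlap between cold and RT in either genotype, nor between the genotypes at RT, where Atf4AKO was lower, as were 2.98% of tested genes without overlap. None of these differences passed the test. The log2 fold changes were -0.53 (SE 0.26, adjusted p = 0.135) after cold in Atf4WT, -0.15 (adjusted p = 0.690) after cold in Atf4AKO and -0.14 (adjusted p = 1.00) between the genotypes at RT. In Atf4WT iWAT the value after cold rested on replicate 1, without which it was -0.16.

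Bmp4 had 65.2 to 108.7 normalized counts in Atf4WT iWAT at RT, 38.0 to 68.7 after cold, 69.6 to 90.2 in Atf4AKO iWAT at RT and 51.0 to 73.1 after cold. The groups overlapped in all comparisons. The log2 fold change after cold was -0.64 (SE 0.28, adjusted p = 0.101) in Atf4WT and -0.36 (SE 0.28, adjusted p = 0.362) in Atf4AKO iWAT. Without cold replicate 1, the value in Atf4WT iWAT was -0.37.

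Gdf10, also called BMP3b, encodes a divergent member of the BMP branch. It had 933, 661 and 566 normalized counts in Atf4WT iWAT at RT and 339, 202 and 438 after cold. The Atf4AKO values were 1296, 933 and 613 at RT and 524, 163 and 668 after cold. The cold libraries lay below the RT libraries in Atf4WT iWAT but overlapped them in Atf4AKO iWAT. The log2 fold changes were -1.18 (SE 0.49, adjusted p = 0.0853) and -1.23 (SE 0.49, adjusted p = 0.0845), so their size came second to that of Inhbb, with the widest confidence intervals of the 9 genes. In Atf4WT iWAT, Gdf10 passed with DESeq2 (log2 fold change -1.14, adjusted p = 0.0403), with only the 2 groups compared (adjusted p = 0.0322) and without Atf4AKO cold replicate 1 (0.020). In Atf4AKO iWAT it passed without cold replicate 2 (log2 fold change -1.63, adjusted p = 0.0454) and with a replicate block (0.0497). Replicate 1 was the lowest cold library in both genotypes. Without it, the value in Atf4AKO iWAT was -0.61.

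**Figure D2:**
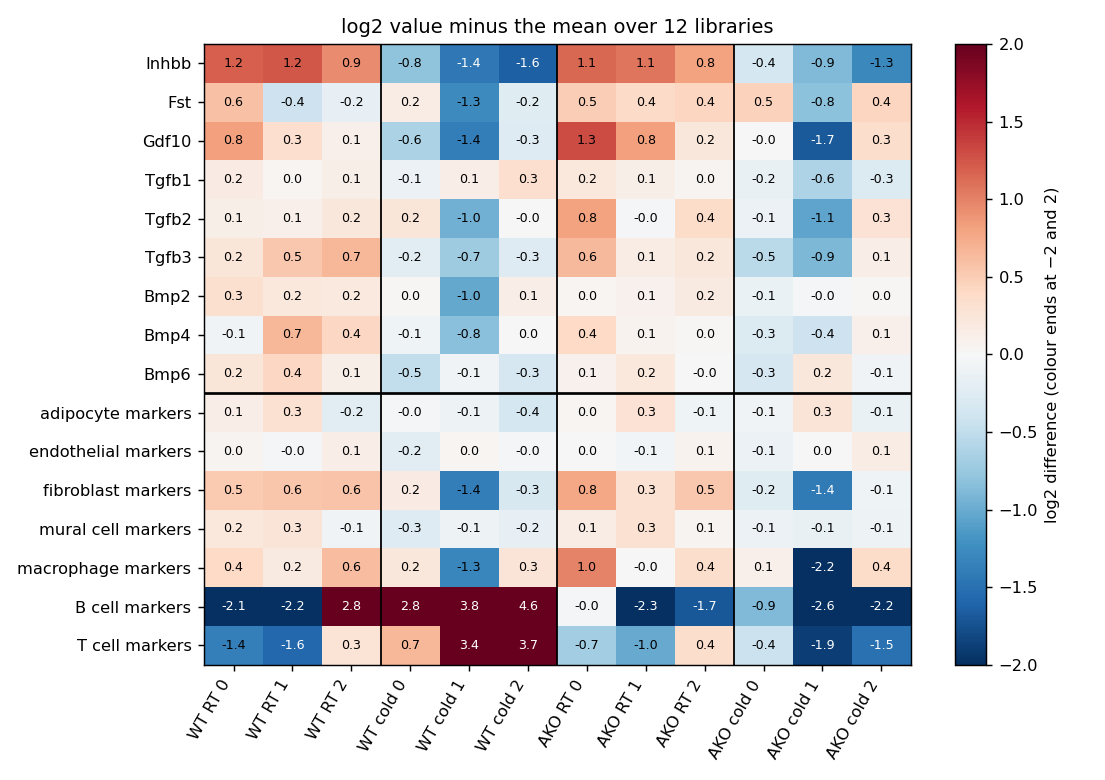
log2(normalized count + 1) minus its mean over the 12 libraries (colour and printed number), for 9 genes and for the mean of 7 cell type marker lists (rows) in each library (columns, by group and replicate). Replicate 1 of both cold groups was lowest in its group for 6 of the 9 genes and for the fibroblast and macrophage markers, and lymphocyte markers were high in the Atf4WT cold libraries and, for B cells, in Atf4WT RT replicate 2.

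Set side by side per kilobase of exon, Tgfb1 had the highest level of the 9 genes in every group. In Atf4WT iWAT at RT its level was 422 ± 18.2 normalized counts per kb (SD, n = 3). Inhbb followed at 405 ± 43.4, and its range overlapped that of Tgfb1. Bmp6 came next at 242 ± 25.6, with a range that met that of Fst. Fst at 169 ± 64.6, Tgfb3 at 149 ± 21.3 and Gdf10 at 138 ± 36.6 overlapped one another. Bmp4 at 42.9 ± 10.6 and Bmp2 at 42.6 ± 2.05 did not differ beyond their spread, and Tgfb2 was lowest at 16.8 ± 0.75.

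After cold, the order in Atf4WT iWAT changed most at Inhbb, which went from rank 2 to rank 5. Inhbb was then at 77.8 ± 24.5 normalized counts per kb, next to Tgfb3 at 81.5 ± 14.7. Bmp2 and Bmp4 exchanged ranks 7 and 8. In Atf4AKO iWAT Inhbb went from rank 2, at 373 ± 43.1, to rank 4, at 106 ± 34.9. Bmp6 was at rank 2 after cold in both genotypes, at 166 ± 24.7 and 196 ± 37.9. Tgfb2 was the lowest of the 9 in all 4 groups.

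**Figure D3:**
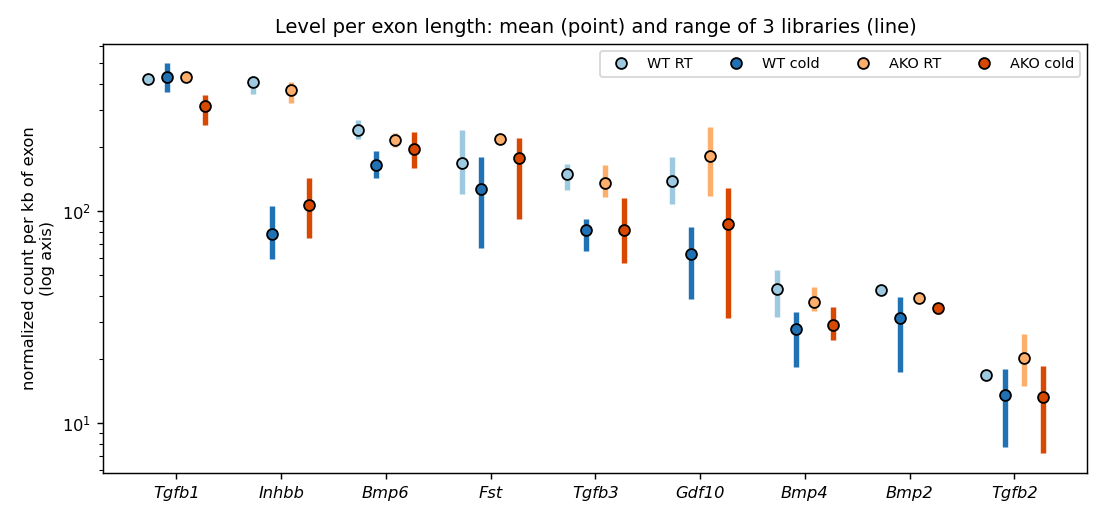
Level per exon length (normalized count per kilobase, log axis) of the 9 genes in the 4 groups, ordered by the mean in Atf4WT iWAT at RT; points are means and lines span the lowest and highest of 3 libraries. Inhbb was at 405 in Atf4WT at RT and at 77.8 after cold, while Tgfb1 stayed at the top in every group.

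Counted together, 3 of the 9 genes (Inhbb, Tgfb3 and Bmp6) were called lower after cold in Atf4WT iWAT and 0 higher. Of the 13404 tested genes, 14.9% were called lower there and 31.9% in either direction, at an adjusted p under 0.05. In Atf4AKO iWAT, 3 of 9 (Inhbb, Tgfb3 and Tgfb1) were called lower and 0 higher, beside 11.0% of tested genes lower and 25.9% in either direction. When the libraries were rescaled to the same 75th percentile, the split over all genes in Atf4AKO iWAT was 1715 higher and 1975 lower, in place of 1988 higher and 1479 lower. Below zero lay 8 of the 9 log2 fold changes in Atf4WT iWAT, beside 49.8% of all tested genes, and 9 of 9 in Atf4AKO iWAT, beside 53.1%. The median over the members was -0.55 in Atf4WT and -0.47 in Atf4AKO iWAT, and over all tested genes 0.0026 and -0.03. Without replicate 1 of the cold group, 2 of 9 (Inhbb and Bmp6) were called in Atf4WT and 1 of 9 (Inhbb) in Atf4AKO iWAT, 8 of 9 values lay below zero in each, and the medians were -0.37 and -0.30. The cold libraries lay wholly below the RT libraries for 5 of the 9 genes in Atf4WT iWAT, beside 22.9% of all tested genes, and for 4 of 9 in Atf4AKO iWAT, beside 19.9%.

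For differentially expressed genes (DEGs), the study used a fold change over 1.5 with an unadjusted p under 0.05, by DESeq2. With limma values at that threshold, 4 of the 9 genes were lower after cold in Atf4WT iWAT (Inhbb, Tgfb3, Gdf10 and Bmp4), beside 10.3% of tested genes. In Atf4AKO iWAT it was 3 of 9 (Inhbb, Tgfb3 and Gdf10), beside 8.92%. Between the genotypes after cold it was 0 of 9, beside 858 of 13404 tested genes.

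Between the genotypes no member was called. At RT, the log2 differences (Atf4AKO minus Atf4WT) ran from -0.18 for Bmp4 to 0.44 for Fst, the lowest unadjusted p was 0.301, and 0.00746% of tested genes were called. After cold they ran from -0.47 for Tgfb1 to 0.48 for Fst, and 0.0298% of tested genes were called. An unadjusted p under 0.05 was found for 1 member (Tgfb1), as for 1571 of the 13404 tested genes. After cold, Inhbb differed by 0.44 (SE 0.24, interval -0.09 to 0.98, adjusted p = 0.523). No cold response of a member was called different between the genotypes, where 0.0% of tested genes were called and 928 of 13404 had an unadjusted p under 0.05. For Inhbb the difference of responses was 0.57 (interval -0.19 to 1.32), an interval that includes no difference as well as a fall more than 1 log2 unit smaller in Atf4AKO iWAT.

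**Figure D4:**
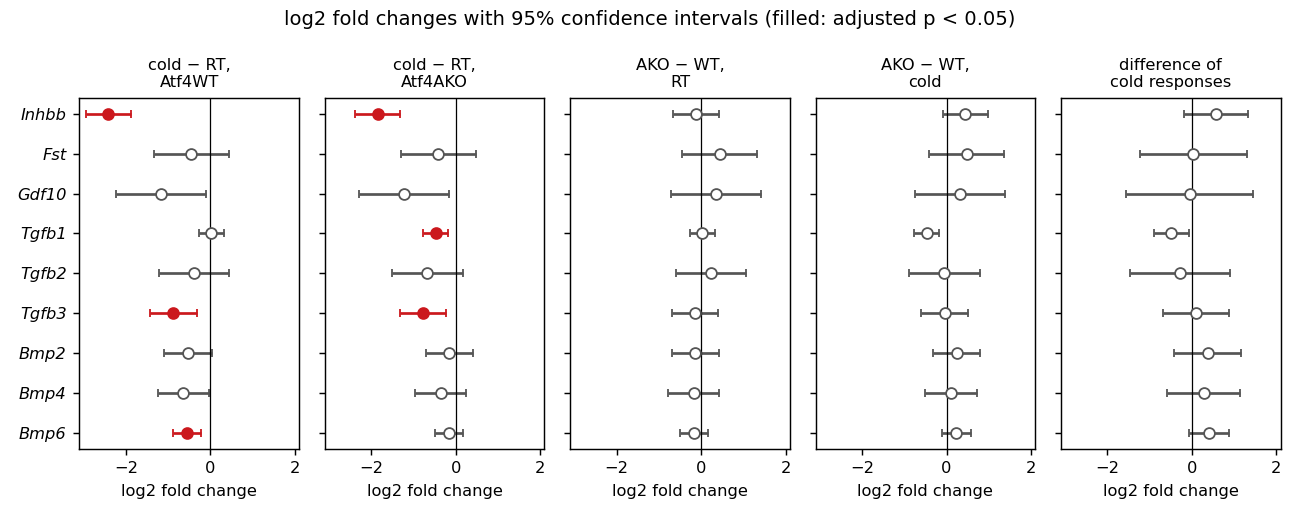
log2 fold changes (horizontal axes) with 95% confidence intervals for 9 genes in the 5 comparisons, by limma on 12 libraries; filled red points passed an adjusted p of 0.05 over all tested genes. Inhbb and Tgfb3 passed after cold in both genotypes, Bmp6 in Atf4WT and Tgfb1 in Atf4AKO, and none passed in the 3 panels that compare the genotypes.

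The genes whose profile over the 12 libraries was most like that of a called member were found by the root mean square (RMS) difference of centred log2 values among 11841 genes whose mean over the libraries reached 50 normalized counts. Anxa2 and Prelp were nearest to Inhbb, at an RMS of 0.255 and 0.278, where the median gene was at 1.14. Anxa2 encodes the membrane-binding protein annexin A2, and Prelp a leucine-rich proteoglycan of the matrix. Nearest to Tgfb3 were Thsd7a (0.131) and Fbln5 (0.133), the latter encoding the elastic fiber protein fibulin-5, against a median of 0.552. Nearest to Bmp6 were Lmcd1 (0.0956) and C1qtnf9 (0.103), against 0.345, and nearest to Tgfb1 were Lpcat1 (0.0720) and Zc3hav1 (0.0855), against 0.355. The genes named are the nearest of all those compared, so they lie below the median by selection, and the median serves only as a scale. An RMS is also small between genes that vary little. All these points share the same 12 libraries.

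Other ligand genes of the family were measured by 12 of 24 listed names. After cold, 2 were called lower and 1 higher in Atf4WT iWAT, and 1 was called lower in Atf4AKO iWAT. Bmp3, which encodes an inhibitory BMP, fell by 1.16 in Atf4WT (adjusted p = 0.00437), and its log2 fold change in Atf4AKO was -0.54 (adjusted p = 0.116). Lefty1, which encodes an inhibitor of nodal, fell in both genotypes, by 0.89 and by 1.72, from means of 49.0 and 43.8 normalized counts. Gdf11, a relative of myostatin, rose by 1.03 in Atf4WT iWAT (adjusted p = 0.00942), and its value in Atf4AKO was -0.31 (adjusted p = 0.383). Inhba, which encodes the activin subunit beta A, had means of 7.82 to 14.8 normalized counts in the 4 groups.

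Of 16 receptor and co-receptor genes tested, 5 were called lower and 1 higher in each genotype. The type I receptor genes Acvr1, Acvr1b and Acvrl1 fell by 0.57, 0.43 and 0.49 in Atf4WT iWAT and by 0.56, 0.41 and 0.58 in Atf4AKO iWAT. Rgma, which encodes a BMP co-receptor, fell by 0.89 and by 0.70, and Rgmb, of the same family, by 0.34 and by 0.33. Eng, which encodes the endothelial co-receptor endoglin, rose by 0.41 and 0.39.

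Among 11 secreted antagonist genes tested, 5 were called lower in Atf4WT and 4 in Atf4AKO iWAT, and 0 were called higher. The median log2 fold change of this list was the lowest of the pathway lists in both genotypes, at -1.02 and -0.56. Bmper, which encodes a BMP-binding protein, fell by 1.56 and by 1.28, and Chrdl1, a chordin-like BMP antagonist, by 1.08 and by 0.87. Htra1, which encodes a secreted serine protease, fell by 1.02 and by 0.92. Fstl1, a follistatin-like gene, fell 2.83-fold in Atf4AKO iWAT (adjusted p = 0.0474) and had a log2 fold change of -1.38 in Atf4WT iWAT (adjusted p = 0.0561).

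Of 12 genes of TGF-beta latency and activation, 4 were called lower in Atf4WT and 3 in Atf4AKO iWAT. Itgb5, an integrin subunit gene, fell by 1.29 and by 0.99, and Emilin1, whose product restrains processing of the TGF-beta precursor, by 0.70 and by 0.99. Ltbp3, which encodes a latent TGF-beta binding protein, fell by 0.49 in Atf4WT iWAT, with a value of -0.16 in Atf4AKO. Ltbp1 fell by 1.04 in Atf4AKO iWAT, with a value of -0.74 (adjusted p = 0.111) in Atf4WT. Of 5 SMAD genes tested, Smad1 fell by 0.48 in Atf4WT iWAT, and none was called in Atf4AKO iWAT.

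Of 11 intracellular inhibitors tested, 3 were called higher and 1 lower in Atf4WT iWAT, and 1 was called higher in Atf4AKO iWAT. Skil, which encodes a SMAD corepressor, rose by 0.76 and 0.70. Smad7, which encodes the inhibitory SMAD that TGF-beta itself induces, rose by 0.98 in Atf4WT iWAT (adjusted p = 0.0110), and its value in Atf4AKO was 0.17 (adjusted p = 0.634). Tgif2, another corepressor, rose by 1.00 in Atf4WT iWAT, with 0.74 (adjusted p = 0.104) in Atf4AKO. Smurf2, a ubiquitin ligase that acts on receptors and SMADs, fell by 0.34 in Atf4WT iWAT, with -0.21 in Atf4AKO.

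Of 9 BMP-SMAD targets tested, Id2 rose by 0.93 in Atf4WT iWAT and Msx1 fell by 1.70 in Atf4AKO iWAT, and no other was called. Msx1 was low, with means of 55.9 normalized counts at RT and 16.7 after cold in Atf4AKO iWAT. The 15 TGF-beta-SMAD targets share Smad7, Skil and Pmepa1 with the list of inhibitors. Of these 15, 2 were called higher and 1 lower in Atf4WT iWAT, and 1 higher and 3 lower in Atf4AKO iWAT. The fibrillar collagen gene Col3a1 fell in both genotypes, by 1.44 and by 1.54. Col1a1 and Col1a2 fell in Atf4AKO iWAT, by 1.72 and by 1.77, and had log2 fold changes of -1.49 and -1.47 in Atf4WT iWAT (adjusted p = 0.0522 and 0.0533). The shares called are to be read beside the 31.9% and 25.9% of all tested genes. No gene of these 8 lists was called between the genotypes or in the difference of cold responses. Of all 13404 tested genes, 4 were called between genotypes after cold, 1 at RT and 0 in that difference. At the study's DEG threshold, with limma values, the genotypes differed after cold in 2 of 12 other ligands and 2 of 15 TGF-beta-SMAD targets. It was 1 of 9 BMP-SMAD targets, 1 of 11 intracellular inhibitors and 0 in the other lists, beside 858 of 13404 tested genes. B and T cell markers also rose after cold in Atf4WT iWAT. Their part in the values of genes called higher there, such as Smad7, Tgif2, Id2 and Gdf11, was not tested.

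**Figure D5:**
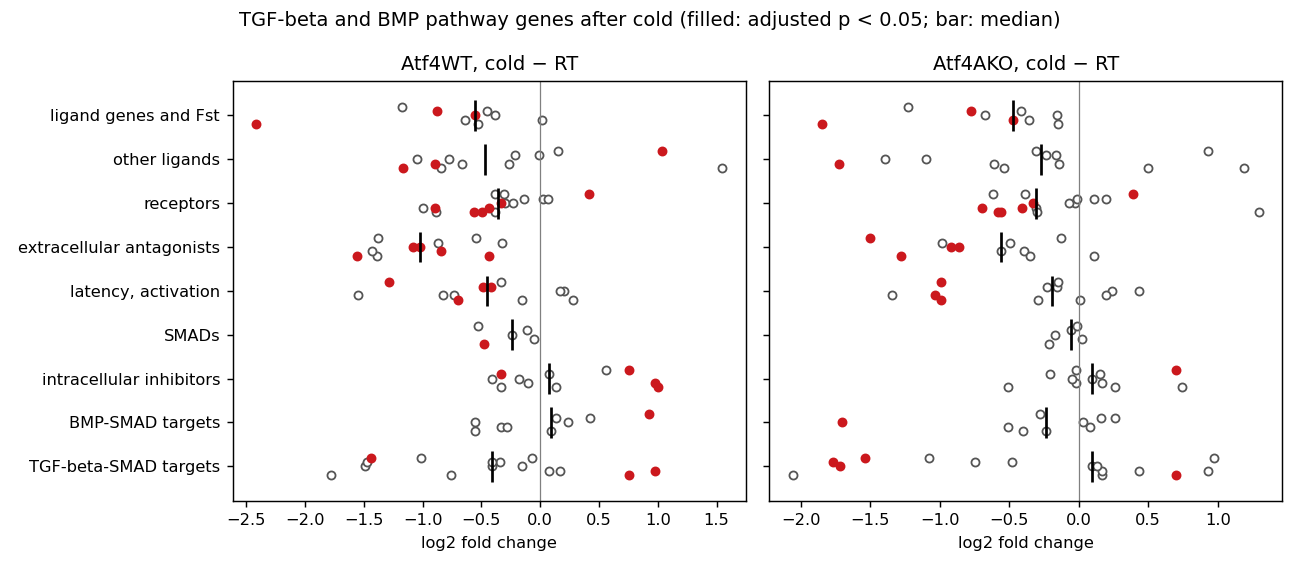
log2 fold changes after cold (horizontal axes) of the tested genes of 9 lists of the TGF-beta and BMP pathway, in Atf4WT (left) and Atf4AKO (right) iWAT; each point is a gene, filled red where the adjusted p was under 0.05, and the black bar is the median of the list. The secreted antagonists had the lowest medians of the 8 lists beside the 9 genes, at -1.02 and -0.56, and the intracellular inhibitors had medians of 0.07 and 0.10.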

How the data were processed

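RNA-seq of iWAT covered 12 libraries in 4 groups of 3, and all columns were used. The authors used SOAPnuke to clean reads, STAR to align these to mm10, featureCounts to count unique alignments per gene, and DESeq2 size factors to scale the counts (tool versions and strand setting are not given in the sources used here). The deposited values are thus a normalized signal, called normalized counts here, which keeps differences in cell makeup between tissue pieces. After division by the smallest value of its library, every value of the 12 libraries was whole to within 0.000313 reads. Atf4AKO RT replicate 1, whose smallest value was 0.996, was nevertheless left out of the count tests, under a rule that accepts no step so close to 1.

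limma 3.58.1 (trend) in R 4.3.3 was fitted to log2(normalized count + 1) of 13404 genes with a mean of at least 10, with 4 group means. A fold change is on this scale, and is understated for low genes. Adjusted p-values are Benjamini-Hochberg values over all 13404 genes, called under 0.05. Intervals are 95% confidence intervals. The study's methods name DESeq2, run here as an alternative. The script was tested on simulated data. The p-values set a difference of group means against the spread between biological replicates, pooled over the 4 groups and moderated over genes.

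The members and lists were chosen with earlier results of these data known, and the lists support no direction on their own. Named genes are all members, up to 4 genes with the largest change among those called after cold in each pathway list (Eng and Rgmb were added after their values were seen, as were the overlapping Ttll5 and Txndc5 and the low gene Inhba), and the 2 genes most like each called member. Cell types were followed by 11 marker lists. Coordinates are those of GENCODE on GRCm38, and upstream sequences those of RefSeq. Alternatives were 2 other pseudocounts, 2 other filters, rescaling to the 75th percentile, only the 2 groups compared, a replicate block, a lymphocyte score (the mean log2 value of the B and T cell markers) as a covariate, edgeR 4.0.16 and DESeq2 1.42.0 on 11 libraries, and leaving out each replicate.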

Additional observations from a re-analysis of the deposited data

How the results depend on the processing

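Inhbb fell after cold in both genotypes under every alternative. Gdf10, not called in the report, passed in Atf4WT iWAT with DESeq2 and with only the 2 groups compared. With the lymphocyte score, 448 of all tested genes, in place of 2000, were called lower after cold in Atf4WT iWAT. The number of members called after cold in Atf4WT iWAT, 3 in the report, was 1 (Inhbb) with that score. It was 1 to 4 when single libraries were left out, with 1 without Atf4WT RT replicate 1. In Atf4AKO iWAT, 3 in the report, it was 1 with only the 2 groups compared, 1 with edgeR and 1 to 4 when single libraries were left out, with 1 without Atf4AKO RT replicate 0, RT replicate 1 or cold replicate 1. Between genotypes after cold it was 0 to 1 when single libraries were left out, the 1 being Tgfb1 without Atf4WT cold replicate 0 (log2 fold change -0.58, adjusted p = 0.0417), while its adjusted p ranged up to 0.508 when other libraries were left out and was 0.0732 with DESeq2. At RT and for the difference of responses it was 0 under every alternative. The number of genes called between genotypes after cold, 4 of 13404, was 2 with edgeR, 562 with DESeq2, 189 with the replicate block, 146 without Atf4WT RT replicate 2 and 517 without Atf4WT cold replicate 0, and for the difference of responses, 0 in the report, it was 129 with DESeq2. The cause was not tested.

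Replicate numbers did not meet the criterion for pairing, a correlation of deviations over 0.1 in every pair. Of 18 pairs with the same number, 9 were over 0.1 (range -0.189 to 0.389, median 0.097), beside 9 of 36 pairs with different numbers (median -0.043). All 6 pairs of replicates 1 lay between 0.179 and 0.389, and 6 of 12 libraries correlated best with their own number. With the replicate as a block, the members called were 3 in Atf4WT and 4 in Atf4AKO iWAT (Gdf10 added, adjusted p = 0.0497) and 0 in the 3 comparisons of genotypes.

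Signs reversed only in members not called. For Tgfb1 after cold in Atf4WT iWAT the log2 fold change was -0.0066 after rescaling, -0.28 with the lymphocyte score and -0.091 to 0.13 when single libraries were left out. Between genotypes after cold, Tgfb3 was at 0.19 with the lymphocyte score, 0.014 with edgeR, 0.0016 with DESeq2 and -0.33 to 0.19 without single libraries, Tgfb2 at 0.11 with the score and -0.41 to 0.33, and Bmp6 at -0.022 with the score. Without single libraries, Gdf10 ran from -0.085 to 0.93, Bmp4 from -0.16 to 0.26 and Bmp2 from -0.13 to 0.45. At RT, Tgfb1 ran from -0.021 to 0.061, and Fst after cold in Atf4AKO iWAT from -0.63 to 0.0027. For the difference of responses, Gdf10 was at 0.077 with edgeR, 0.062 with DESeq2 and -0.45 to 0.57 without single libraries, Tgfb3 at -0.19 to 0.33, Fst at -0.17 with the score and -0.37 to 0.46, and Tgfb2 at -0.65 to 0.090. With 3 libraries a group, the standard errors of Gdf10, Fst and Tgfb2 between 2 groups were 0.49, 0.41 and 0.38. Smaller shifts of these genes could not be resolved, and shifts well above 1 standard error could also go uncalled. Gdf10 after cold in Atf4WT iWAT was such a case, at -1.18 (adjusted p = 0.0853 by limma). No exact test over 3 against 3 libraries can go below 0.1.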
